A study of Mus musculus with 3 samples.

Results

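Opposite-strand RNAs are transcripts that were named after a neighbouring gene on the other DNA strand, such as Oip5os1 after Oip5, and 62 of them were described here together with the 62 partner genes that gave them their names. The table of read counts lists 49997 genes, of which 231 bear the name of another listed gene followed by "os" and an optional digit. Members were chosen by their own counts, at least 30 summed over the 3 libraries. Of the other 169 such genes, 82 had no count in any library and 87 had 1 to 29. All 3 libraries came from E14 mouse embryonic stem cells (ESCs) after 24 h of doxycycline (Dox), namely 1 input and 2 replicates of RNA immunoprecipitation (IP) with an antibody to YTHDF2. In the line the study describes, Dox switches on a Dux transgene that induces the 2C-like state, which resembles the early cleavage embryo, and the Mervl promoter drives a tdTomato reporter. Input and IP thus share line, transgene and treatment. Whether they also share lysis and clearing is not settled by the sources used here. The comparison asks which RNAs were recovered with YTHDF2, and no library from a control antibody was analysed here.

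YTHDF2 is a cytoplasmic reader of N6-methyladenosine (m6A), and it directs methylated transcripts to decay. Opposite-strand transcripts commonly start near the promoter of their partner and run away from it, or overlap the partner body as an antisense transcript. Some stay in the nucleus, some reach the cytoplasm, and a few encode short proteins. Long noncoding RNAs (lncRNAs) can carry m6A as mRNAs do.

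The name of the group fitted most members but not all. By RefSeq biotype 50 of the 62 were lncRNAs, 10 were protein-coding and 2 were transcribed pseudogenes. Among the coding members were Slc7a6os, Crxos, Wdr83os, Pigbos1, Ccpg1os, Brd3os, Cebpzos, Cdiptos and Fancd2os, and the pseudogenes were Fbxl12os and Speer4cos. All partners were protein-coding and lay on the other strand. The 5′ ends overlapped in 18 pairs, and in another 18 the genes diverged without overlap. One gene lay inside the other in 12 pairs, the 3′ ends overlapped in 7, and 7 pairs converged without overlap. Exons of RNA and partner shared bases in 31 pairs.

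Arrangement and counting bear on each other here. The libraries were strand-specific, but strand was not used when reads were counted, and reads over exons of more than 1 gene were left out. A read in an exon that only the RNA has was counted for the RNA even where it came from unspliced transcript of the partner, and 32 members have exon bases inside an intron of their partner. For 25 members no exon base lay within the partner. Exon bases were also shared with some other gene in 7 members, among them Brip1os. The 5 RNAs Tmem51os1, Dgkeos, Speer4cos, Phtf1os and Ube4bos3 are annotated on 2 reference sequences, so that reads mapping to both were left out.

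Library depth was alike, with 36986994 input counts beside 35259827 and 35888743 counts in IP replicates 1 and 2. All 8 pluripotency markers tested, Pou5f1 and Nanog among them, were abundant, with summed levels of 8540 to 8660 CPM (counts scaled to library size) in each library. The 5 markers of the 2C-like state summed to 1740 CPM in the input and 2700 CPM in each IP library. Fibroblast markers reached 15.5 to 30.5 CPM, mostly from Thy1, with Col3a1 and Dcn at 0 in all libraries. Primitive endoderm markers summed to 11.8 to 18.9 CPM. Mesendoderm and neural markers summed to 89.4 CPM in the input and to 174 and 165 CPM in the IP libraries, mostly from Tubb3 and Sox1. What part these shifts have in the values of the RNAs was not tested. For the level of a marker within a single bulk library, fewer cells of a type and less RNA per cell cannot be told apart.

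The 62 RNAs together took 0.0313% of input counts and 0.0452% and 0.0441% of the counts in IP replicates 1 and 2. Counts were very uneven, from 30 to 6898 per RNA with a median of 141, and the 12 most counted RNAs held 75.7% of them. Evx1os (16 counts in the input, 12 and 2 in the IP libraries), Lrrc75aos1 (25, 5 and 0) and Tnfsf13os (15, 5 and 10) lay at the limit, while Arhgap27os3 (10, 8 and 10), Rapgef3os2 (7, 11 and 10) and Tbx3os1 (16, 5 and 6) lay just outside. Because the sum holds both IP libraries and a single input, an RNA could enter through IP reads alone, and Foxd2os, with no count in the input, did so. Lrrc75aos1 in turn owed 25 of its 30 counts to the input.

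A single edgeR fit compared IP with input over 19601 genes, those left after genes of few counts were removed. Calls needed an adjusted p-value below 0.05 together with a change of more than 2-fold, and a gene was called enriched when higher in IP and depleted when lower. All 62 RNAs and 60 of the partners were tested, since Pcsk2 and Speer4c had too few counts. Of the RNAs, 15 were enriched (24.2%), beside 15.0% of all genes tested, and 14 without Foxd2os. Enriched RNAs fell to 12 with DESeq2 and 11 with a fixed dispersion of 0.1. Depleted RNAs numbered 6 (9.68%), beside 13.0% of all genes tested, or 5 without Lrrc75aos1. They fell to 3 with DESeq2 and 2 with a fixed dispersion of 0.1. The share of all genes is given for the main fit only. Among all 2169 lncRNAs tested, 17.3% were enriched and 10.5% depleted. The median log2 (IP/input) was 0.54 over the RNAs, with 34 above 0 and 28 below, and 0.01 over all genes tested. Without Foxd2os the median of the RNAs was 0.48. Partners were enriched in 13 cases (21.7%) and depleted in 5 (8.33%), with a median of 0.12, and a fixed dispersion of 0.1 left 6 enriched and 3 depleted. Without Crx, a partner with no count in the input, 12 were enriched.

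Oip5os1, the lncRNA also known as Cyrano, gave a plain contrast between the strands. Oip5os1 (chr2:119594296-119600746, plus strand, mm10) had 499 input counts and 1852 and 1791 IP counts. Its partner Oip5, a centromere protein of the Mis18 complex, went the other way, with 805 counts in the input and 310 and 246 after IP. Both IP libraries lay above the input for the RNA and below it for the partner. Oip5os1 was enriched 3.55-fold (log2 1.83 ± 0.12 SE, adjusted p = 2.72e-16), and Oip5 was depleted 2.97-fold (log2 -1.57 ± 0.16, adjusted p = 1.52e-10). The genes converge with 8785 bases between them and share no exon base, so no read could be assigned to the wrong one by overlap. Counts per kb of exon that no other gene holds put Oip5os1 at 0.539 times Oip5 in the input and at 5.20 and 6.33 times in the IP libraries.

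Pigbos1 and Pigb behaved likewise although their first exons overlap. Pigb also shares exon bases with Ccpg1, a partner described below, and 1806 of its 2807 exon bases are held by no other gene. Pigbos1 (chr9:73039718-73042782, plus strand) encodes a microprotein of the mitochondrial outer membrane, and Pigb encodes a mannosyltransferase of GPI anchor synthesis. Pigbos1 had 273 input counts and 705 and 522 IP counts. Pigb had 262 in the input and 79 and 80 after IP. Per kb of unshared exon, Pigbos1 stood at 3.82 times Pigb in the input and at 32.7 and 23.9 times in the IP libraries. Pigbos1 was enriched 2.19-fold (log2 1.13 ± 0.18, adjusted p = 2.67e-06), although the log2 ratio of IP replicate 2 alone was 0.88 and so under the fold threshold. Pigb was depleted 3.38-fold (log2 -1.76 ± 0.28, adjusted p = 1.16e-06). With a fixed dispersion of 0.1, Pigbos1 was not called (adjusted p = 0.184). The other members called without passing 2-fold in each IP library by itself were Gssos2, Irx3 and Jun.

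Whether the members of a pair differed was tested directly, as the difference between their log2 (IP/input), with p-values adjusted over 4082 pairs of tested neighbours on opposite strands. The scaling of the libraries cancels in that difference. Of the 60 pairs tested, 21 differed by more than 2-fold (35.0%), beside 34.7% of all 4082 neighbour pairs, so the share among the pairs was near the background. With a fixed dispersion of 0.1, 11 of the 60 were called, beside 16.5% of all neighbour pairs. The RNA was the higher member in 14, or 13 without Foxd2os, and the lower in 7, or 6 without Lrrc75aos1. Those 6 include the pair of Crxos, whose partner Crx had no count in the input. The median size of the difference was 1.17 on the log2 scale among the pairs and 1.06 among all neighbour pairs. Across the 60 pairs the log2 (IP/input) of RNA and partner had a Spearman rho of 0.09 and a Pearson r of 0.00, as a description over genes measured in the same 3 libraries. Over the 36 pairs with at least 100 counts for each member, rho was 0.16 and r was 0.17.

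**Figure D1:**
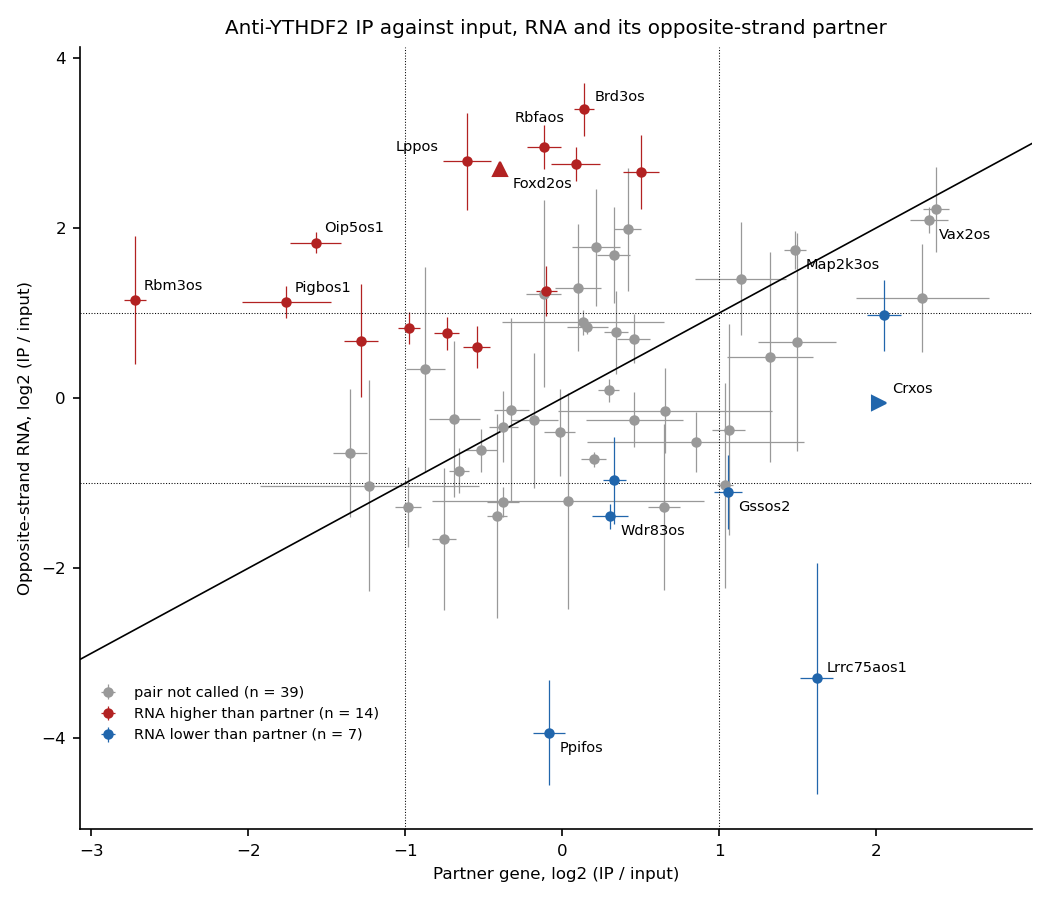
Log2 (IP/input) of each opposite-strand RNA (y axis) against that of its partner (x axis) for the 60 tested pairs, with bars of 1 SE, the line of equal values, and dotted lines at 2-fold. Red and blue points mark the 14 pairs whose RNA was higher and the 7 whose RNA was lower, and triangles show the lower bounds of Foxd2os (log2 2.69) and of Crx, the partner of Crxos (log2 2.02), which had no count in the input. Oip5os1 and Pigbos1 lie at upper left, with an enriched RNA and a depleted partner.

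Among pairs with at least 100 counts for each member, the widest differences in favour of the RNA were those of Oip5os1, Lppos, Brd3os, Rbfaos and Pigbos1. The ratio of Oip5os1 to Oip5 was 10.6-fold higher in IP than in input (log2 3.40 ± 0.20, adjusted p = 1.19e-16). For Pigbos1 and Pigb it was 7.40-fold (log2 2.89 ± 0.34, adjusted p = 8.12e-09). Lppos, a lncRNA at the 5′ end of Lpp, which encodes a LIM protein of focal adhesions, had 11 input counts and 84 and 73 IP counts. Lpp had 695, 416 and 521, and the pair differed by 3.39 ± 0.59 on the log2 scale (adjusted p = 7.48e-06). The RNA rested on 11 input counts, whereas Lpp, at a log2 (IP/input) of -0.61 ± 0.15, was not called.

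Brd3os and Rbfaos had few input counts beside partners that were not called. Brd3os (chr2:27442436-27444221, plus strand), a single-exon coding gene, had 30 input counts and 347 and 304 IP counts, a 10.5-fold enrichment (log2 3.40 ± 0.31, adjusted p = 5.35e-12). Brd3, a bromodomain protein that binds acetylated histones, had 5274, 5952 and 5991, with a log2 (IP/input) of 0.14 ± 0.06. The gap of 1354 bases between them leaves no shared exon base, and the difference was 3.26 ± 0.32 (adjusted p = 5.01e-11). Rbfaos had 52 input counts and 426 and 400 IP counts, a 7.71-fold enrichment (log2 2.95 ± 0.26, adjusted p = 1.5e-12). Rbfa, a mitochondrial ribosome-binding factor, had 1267, 1205 and 1194 (log2 -0.12 ± 0.11). Their 3′ ends overlap and 648 exon bases are common to both, from which no read was counted.

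Beside Brd3os, Rbfaos and Lppos, the highest fitted enrichments were those of Lrp8os2, Fzd10os and Foxd2os. Lrp8os2 (chr4:107806033-107823022, minus strand) lies wholly in introns of Lrp8, a reelin and apolipoprotein E receptor. It had 99 input counts and 705 and 668 IP counts, enriched 6.74-fold (log2 2.75 ± 0.20, adjusted p = 4.83e-15). Lrp8 had 477, 502 and 538 (log2 0.08 ± 0.16), so the RNA rose inside a partner that was not called. Per kb Lrp8os2 stood at 0.745 times Lrp8 in the input and at 5.04 and 4.45 times in the IP libraries. Fzd10os, divergent from the Wnt receptor gene Fzd10, had 21, 152 and 121 counts (log2 2.65 ± 0.43, adjusted p = 1.60e-06). Fzd10 had 885, 1336 and 1238 (log2 0.50 ± 0.12). The pair differed by 2.15 ± 0.45 (adjusted p = 0.000108).

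Foxd2os, divergent from the forkhead gene Foxd2, had 0 input counts and 14 and 26 IP counts. Against a floor of 3 counts in the input, it was at least 6.47-fold higher in IP. Foxd2 had 18, 16 and 12 counts. Both genes were scarce, and the RNA was a member through IP reads alone, so its call and that of its pair followed from how members were chosen and are given as a description.

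In 7 pairs the RNA was the lower member. Wdr83os (chr8:85080963-85082339, plus strand) encodes a subunit of an endoplasmic reticulum complex that helps insert membrane proteins, and Wdr83 encodes a WD-repeat scaffold protein. Wdr83os had 891 input counts and 352 and 346 IP counts, a 2.62-fold depletion (log2 -1.39 ± 0.15, adjusted p = 1.35e-10). Wdr83 had 1069, 1240 and 1472 (log2 0.30 ± 0.11). Per kb of unshared exon the RNA lay above its partner in the input, at 1.32 times, and below it in both IP libraries, at 0.451 and 0.373 times. No other pair crossed in that direction. The difference was -1.69 ± 0.19 (adjusted p = 9.67e-10), and with a fixed dispersion of 0.1 Wdr83os itself was just short of a call (adjusted p = 0.0600).

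Gssos2 and Gss were called in opposite directions. Gssos2, a lncRNA that overlaps most of the gene for glutathione synthetase, had 88 input counts and 46 and 38 IP counts (log2 -1.10 ± 0.43, adjusted p = 0.0274). IP replicate 1 alone gave a log2 ratio of -0.96. Gss had 1250, 2641 and 2702 (log2 1.06 ± 0.09, adjusted p = 7.56e-13), and the pair differed by -2.16 ± 0.44 (adjusted p = 8.09e-05). Gssos2 was not called by DESeq2 (adjusted p = 0.272), and a fixed dispersion of 0.1 called neither Gssos2 (0.186) nor Gss (0.213). Lrrc75aos1, at the limit of 30 counts and inside Lrrc75a, was also called opposite to its partner. Its 25, 5 and 0 counts stood beside 728, 2231 and 2373 for Lrrc75a (log2 1.62 ± 0.10, adjusted p = 2.64e-16). The call of Lrrc75aos1 (log2 -3.29 ± 1.36, adjusted p = 0.0369) was lost with DESeq2 (adjusted p = 0.202), and its pair differed by -4.91 ± 1.36 (adjusted p = 0.00281). Because Lrrc75aos1 reached the limit through its input counts, its call and that of its pair are given as a description. Its log2 ratio was -2.24 in IP replicate 1 alone and -5.72 in IP replicate 2 alone, which had no count.

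Ppifos had the lowest log2 (IP/input) of all members. It overlaps the 3′ end of Ppif, which encodes the mitochondrial cyclophilin D, and had 91 input counts and 4 and 8 IP counts (log2 -3.94 ± 0.62, adjusted p = 8.41e-07). Ppif had 1720, 1545 and 1791 (log2 -0.08 ± 0.10). Both IP libraries lay far below the input for the RNA and close to it for the partner, and 1387 of its 1777 exon bases lie in introns of Ppif. The difference was -3.85 ± 0.63 (adjusted p = 2.73e-06).

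The other lower RNAs were Cdiptos, Frs3os and Crxos. Cdiptos, a coding gene divergent from the phosphatidylinositol synthase gene Cdipt, had 60, 27 and 36 counts beside 2994, 3929 and 3813, a difference of -1.30 ± 0.52 (adjusted p = 0.0362). Frs3os had 48, 76 and 118 counts while Frs3, an adaptor of FGF receptors, had 565, 2397 and 2408 and was enriched 4.14-fold (log2 2.05 ± 0.11, adjusted p = 5.77e-19). Their difference of -1.08 ± 0.43 (adjusted p = 0.0356) was -0.80 by IP replicate 2 alone. Crxos, a homeobox gene, had 680, 675 and 664 counts, level in all libraries. Crx, a homeobox gene of photoreceptors, had 0, 18 and 7, at least 4.07-fold higher in IP against the floor of 3 counts (adjusted p = 0.0400). IP replicate 2 alone gave a bound of 2.25-fold and IP replicate 1 alone 5.88-fold. The call of the Crxos pair (adjusted p = 0.0448) rested on those few Crx counts, and Crx was not called by DESeq2 (adjusted p = 0.0748).

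**Figure D2:**
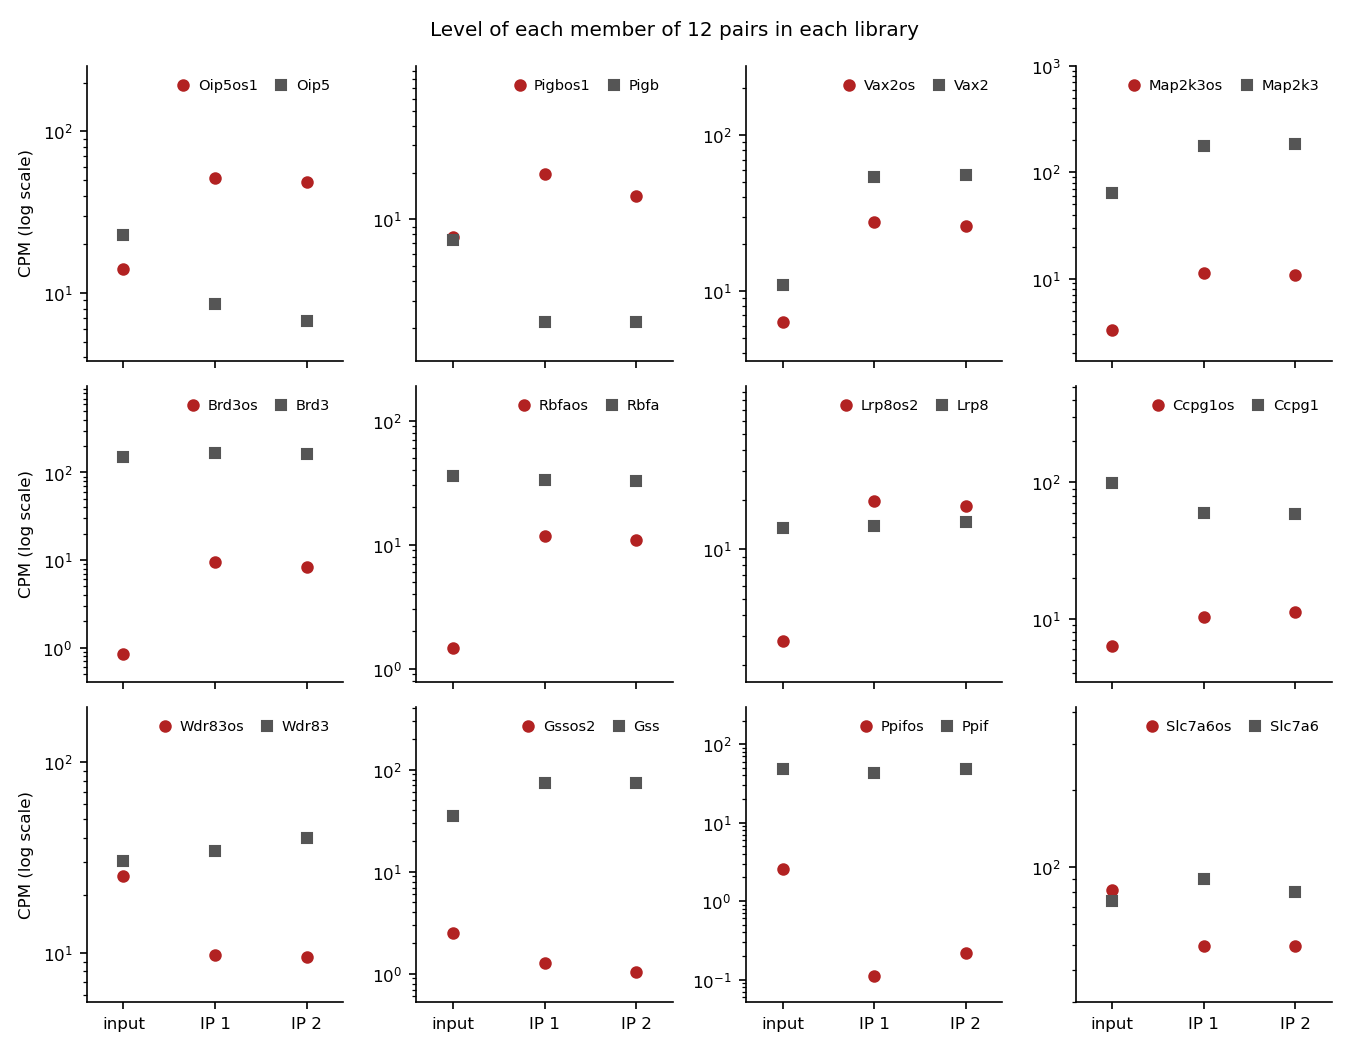
Level of RNA (red circles) and partner (grey squares) in the input and both IP libraries, in CPM after TMM scaling on a log axis, for 12 pairs. Oip5os1 and Pigbos1 part from their partners in opposite directions, Vax2os and Map2k3os move with theirs, and Brd3os, Rbfaos and Ppifos change beside partners that stay level.

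In 3 pairs both members were enriched. Vax2os (chr6:83692804-83712201, minus strand) overlaps the 5′ end of the eye homeobox gene Vax2 without sharing an exon base. It had 225 input counts and 1009 and 963 IP counts, a 4.26-fold enrichment (log2 2.09 ± 0.15, adjusted p = 1.18e-14). Vax2 had 386, 1962 and 2047, a 5.05-fold enrichment (log2 2.34 ± 0.12, adjusted p = 3.17e-19). The difference of -0.24 ± 0.20 was not called (adjusted p = 0.316), with a 95% interval of -0.64 to 0.15. Per kb the RNA stayed at 0.186 to 0.230 times Vax2 in every library.

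Map2k3os, divergent from the MAP kinase kinase gene Map2k3, had 116, 406 and 392 counts (log2 1.74 ± 0.23, adjusted p = 1.65e-08). Map2k3 had 2275, 6355 and 6704 (log2 1.48 ± 0.07, adjusted p = 3.05e-20), and the 95% interval of the difference was -0.22 to 0.74. Map2k3 was not called with a fixed dispersion of 0.1 (adjusted p = 0.0711). Tmem51os1 had 18, 88 and 85 counts (log2 2.22 ± 0.50, adjusted p = 0.000223). Tmem51, a membrane protein gene, had 1065, 5464 and 5967 (log2 2.38 ± 0.08, adjusted p = 3.22e-24). All IP libraries of these 6 genes lay above the input.

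The 5 windows printed next show how closely the start sites face each other in pairs that differed in IP and in pairs that did not. Each is the GRCm38.p6 sequence between the annotated 5′ ends with 20 bases beyond either end, read along the strand of the partner. Capitals mark the first 20 transcribed bases of each gene, the RNA at left (where its first bases read as their reverse complement) and the partner at right. In the window of Pigbos1 and Pigb the 5′ ends overlap by 6 bases, and the capitals merge.
Pigbos1 and Pigb (chr9:73039698-73039743, minus strand): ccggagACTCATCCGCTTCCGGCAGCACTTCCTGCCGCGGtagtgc
Ccpg1os and Ccpg1 (chr9:72985356-72985422, plus strand): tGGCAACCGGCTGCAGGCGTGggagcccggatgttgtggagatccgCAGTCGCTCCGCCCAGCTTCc
Wdr83os and Wdr83 (chr8:85080726-85080983, minus strand): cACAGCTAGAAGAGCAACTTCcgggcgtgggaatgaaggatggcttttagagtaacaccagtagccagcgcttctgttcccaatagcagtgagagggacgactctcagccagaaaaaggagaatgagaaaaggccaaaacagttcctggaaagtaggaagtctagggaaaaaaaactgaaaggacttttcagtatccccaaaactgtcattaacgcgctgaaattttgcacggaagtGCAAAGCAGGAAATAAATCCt
Map2k3os and Map2k3 (chr11:60931847-60932074, plus strand): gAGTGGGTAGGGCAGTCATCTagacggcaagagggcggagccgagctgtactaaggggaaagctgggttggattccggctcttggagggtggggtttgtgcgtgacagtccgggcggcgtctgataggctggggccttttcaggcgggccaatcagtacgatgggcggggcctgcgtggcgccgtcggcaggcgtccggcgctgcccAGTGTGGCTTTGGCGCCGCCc
Brip1os and Brip1 (chr11:86201195-86201380, minus strand): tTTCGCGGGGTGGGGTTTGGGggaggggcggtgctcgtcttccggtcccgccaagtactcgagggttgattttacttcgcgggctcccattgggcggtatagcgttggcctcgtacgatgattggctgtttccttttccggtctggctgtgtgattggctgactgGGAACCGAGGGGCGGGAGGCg

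The windows of Pigbos1, Ccpg1os, Map2k3os and Brip1os held 61.8% to 68.7% GC and 8.77 to 10.9 CpG per 100 bases, beside medians of 52.7% and 2.33 over 32851 promoters of RefSeq. The window of Wdr83os held 45.3% GC and 2.71 CpG per 100 bases. GGGCGG, searched on both strands, occurred 4 times in the window of Map2k3os, 3 times in that of Brip1os and once in that of Ccpg1os, and 35.7% of all promoters held it. CCAAT occurred 3 times in the window of Brip1os and once each in those of Map2k3os and Wdr83os, and 37.4% of promoters held it. TATAAA, held by 13.6% of promoters, had 0 matches in the 5 windows. The windows, of 46 to 258 bases, were not matched in length to the promoters, so the motif counts cannot be read against these shares.

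Ccpg1os and Brip1os, at 2 of these windows, were not called on their own. Ccpg1os, a coding gene, had 224, 372 and 408 counts (log2 0.76 ± 0.20), and Ccpg1, a receptor for autophagy of the endoplasmic reticulum, had 3466, 2136 and 2138 (log2 -0.74 ± 0.08). Their difference of 1.50 ± 0.21 was called (adjusted p = 2.01e-07), and per kb Ccpg1os passed from 0.427 times Ccpg1 in the input to 1.15 and 1.26 times after IP. Brip1os was the most counted RNA, at 1474, 2646 and 2778 (log2 0.84 ± 0.09, adjusted p = 1.20e-10), under the fold threshold. Brip1, a helicase of DNA repair, had 716, 829 and 815 (log2 0.16 ± 0.13), and the 95% interval of the difference, 0.36 to 1.00, lay above 0 but did not pass the threshold of 1.

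**Figure D3:**
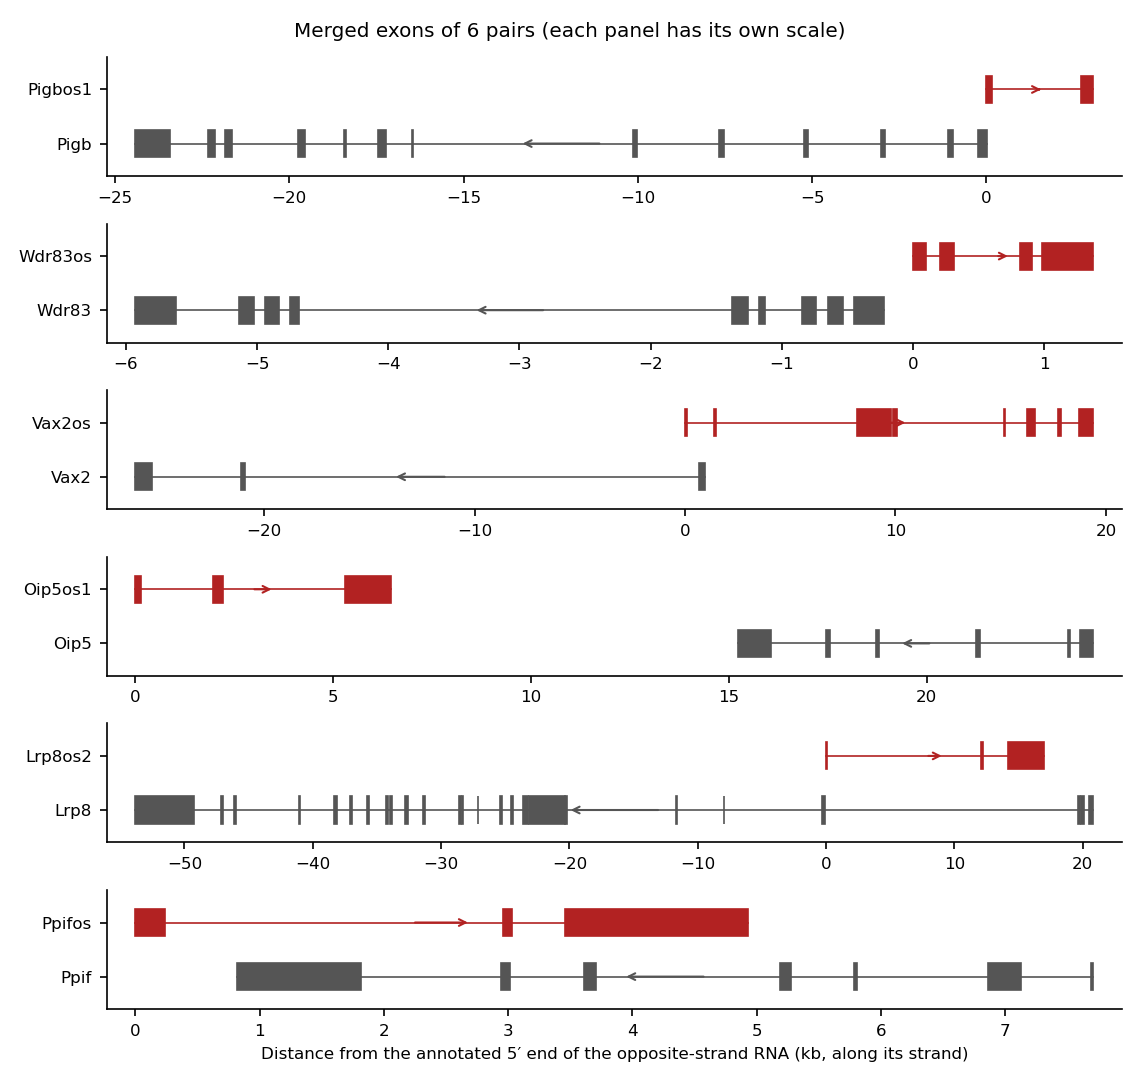
Merged exons (boxes) and spans (lines) of 6 pairs, with distance from the annotated 5′ end of the RNA in kb along its strand. Arrows show the direction of transcription, red marks the RNA and grey the partner, and each panel has its own scale. Pigbos1 and Wdr83os start beside their partners, Oip5os1 ends 8785 bases from Oip5, and Lrp8os2 lies in introns of Lrp8.

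The remaining RNAs of many counts were mostly not called. Slc7a6os, a coding gene whose product is linked to nuclear import of RNA polymerase II, had 2886, 1792 and 1806 counts (log2 -0.72 ± 0.08, adjusted p = 1.40e-09), and the amino acid transporter gene Slc7a6 had 2625, 3258 and 2940 (log2 0.20 ± 0.08). The difference of -0.92 ± 0.12 had a 95% interval of -1.16 to -0.69, below 0 but short of the threshold. Epb41l4aos had 690, 762 and 749 counts and Epb41l4a, a band 4.1-like protein gene, 4336, 5470 and 5472, level within 1.23-fold for both. Ptprtos, in introns of the receptor phosphatase gene Ptprt, had 433, 781 and 869 (log2 0.89 ± 0.14), beside 40, 51 and 39 for Ptprt (log2 0.13 ± 0.52). Per kb Ptprtos exceeded Ptprt at least 245-fold in each library, the widest ratio of all pairs with counts for the partner in every library.

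Kank4os and Rab10os fell on either side. Kank4os, in introns of the ankyrin-repeat gene Kank4, was depleted 2.33-fold, from 607 counts to 280 and 255 (log2 -1.22 ± 0.17, adjusted p = 9.87e-08). Kank4 had 1610, 1280 and 1266 (log2 -0.38 ± 0.10), and the difference of -0.84 ± 0.20 was under the threshold of 1. Rab10os had 231, 408 and 433 counts (log2 0.82 ± 0.19) beside 4808, 2521 and 2497 for the small GTPase gene Rab10 (log2 -0.98 ± 0.07). Neither passed 2-fold, but the pair differed by 1.80 ± 0.21 (adjusted p = 1.66e-09). Ggnbp2os, the last depleted RNA, had 77, 31 and 34 counts (log2 -1.28 ± 0.47, adjusted p = 0.0191) and moved with Ggnbp2, at 3218, 1593 and 1754 (log2 -0.98 ± 0.08). DESeq2 did not call Ggnbp2os (adjusted p = 0.236), and a fixed dispersion of 0.1 called neither it (0.120) nor Kank4os (0.108).

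The other enriched RNAs were Stk35os1, Zfp335os, Dgkeos and Fbxl12os. Stk35os1 had 89, 190 and 250 counts (log2 1.26 ± 0.29, adjusted p = 0.000317) while the kinase gene Stk35 had 4465, 4310 and 4250, and the pair was called different (log2 1.36 ± 0.30, adjusted p = 0.000235). Zfp335os, Dgkeos and Fbxl12os had 11 to 18 counts in the input, log2 (IP/input) of 1.68 to 1.98 and adjusted p-values of 0.0107 to 0.0272. Dgkeos, the highest of them, had 65 and 25 IP counts, with log2 ratios of 2.48 and 1.10 in the single libraries. Their pairs were not called, and DESeq2 called none of the 3 RNAs (adjusted p = 0.122 to 0.181). With a fixed dispersion of 0.1, Stk35os1 (adjusted p = 0.142), Zfp335os (0.0742) and Fbxl12os (0.0728) were not called. Sp3os and Sp3, Fancd2os and Fancd2, and Rbm3os and Rbm3 made up the other called pairs, each with an RNA that was not called alone. Rbm3, a cold-inducible RNA-binding protein gene, was depleted 6.60-fold (7576, 1194 and 1165 counts, adjusted p = 6.65e-28), whereas Rbm3os had 14, 38 and 26. Fancd2, a DNA crosslink repair gene, was depleted 2.43-fold (1948, 771 and 875 counts, adjusted p = 4.59e-13) beside 21, 44 and 25 for Fancd2os, but was not called with a fixed dispersion of 0.1 (adjusted p = 0.0854). Sp3os had 159, 262 and 235 counts and the transcription factor gene Sp3 3373, 2555 and 2191, with a difference of 1.15 ± 0.26 (adjusted p = 0.000457).

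No call was made for 41 RNAs. Of these, 20 had at least 100 counts, with log2 (IP/input) from -0.97 to 1.18, and 10 of them passed the adjusted p-value but not the fold, 7 above 0 and 3 below. The 20 included, beside those described, Cebpzos, Abhd11os, Fam120aos, Srrm4os, Rab26os, Ino80dos, Etaa1os, Kirrel3os and Kcnmb4os2. The other 21 had 30 to 99 counts and SEs of 0.65 to 1.28. In 11 of those 21 the value was past 2-fold without passing the adjusted p-value, so a 2-fold difference was not detectable at this depth. The 21 RNAs of 30 to 99 counts were Irx3os, Phf2os1, Fancd2os, Speer4cos, Rbm3os, Appbp2os, Parvaos, Pcsk2os1, Uchl1os, Uckl1os, Nphs1os, Phtf1os, Stamos, Zbtb11os1, Dmrta2os, Prdm16os, Tbx3os2, Ube4bos3, Junos, Evx1os and Tnfsf13os.

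Among all genes tested 15.0% were enriched and 13.0% depleted. By arrangement, 7 of the 18 RNAs with overlapping 5′ ends were enriched and 2 depleted, with a median log2 (IP/input) of 1.00. Of the 18 divergent RNAs, 3 were enriched (2 without Foxd2os) and 1 was depleted, with a median of 0.30 (-0.06 without Foxd2os), so the enriched share was near the background. Of the 12 in nested pairs, 1 was enriched and 2 were depleted, Kank4os and Lrrc75aos1, with a median of -0.21. Of the 7 convergent RNAs 3 were enriched (median 0.09), and of the 7 with overlapping 3′ ends 1 was enriched and 1 depleted (median 0.68). Partners of the RNAs with overlapping 5′ ends had a median of 0.04 and those of the divergent RNAs 0.23. Differences between arrangements were not tested. By sharing of exon bases, there were 7 enriched and 3 depleted among the 31 RNAs that share bases with their partner. Among the 31 that do not, 8 were enriched (7 without Foxd2os) and 3 depleted (Lrrc75aos1 among them), beside the same shares of all genes.

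**Figure D4:**
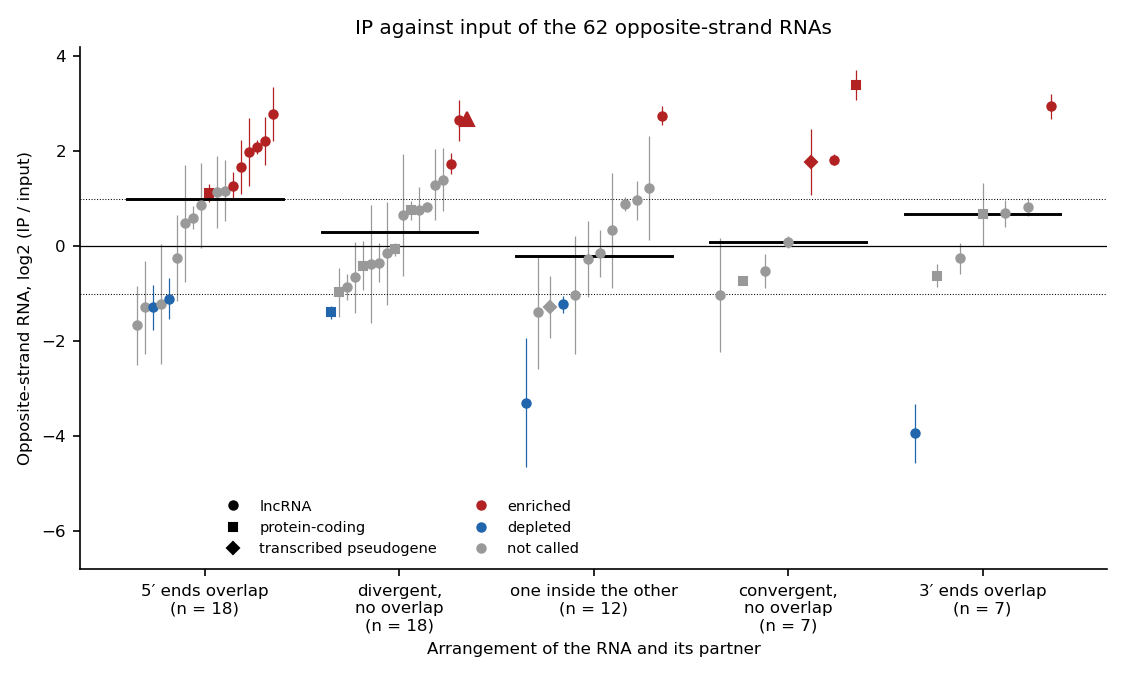
Log2 (IP/input) of the 62 RNAs with bars of 1 SE, grouped on the x axis by how RNA and partner are arranged. Symbols give the RefSeq biotype, colours the call, thick lines the median of each group and the triangle the lower bound of Foxd2os. The medians run from 1.00 where 5′ ends overlap to -0.21 where one gene lies inside the other, and each group spans both signs.

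By biotype, 12 of the 50 lncRNAs were enriched (11 without Foxd2os) and 5 depleted (Lrrc75aos1 among them), with a median of 0.63. Of all lncRNAs tested, 17.3% were enriched and 10.5% depleted. Of the 10 coding members, Pigbos1 and Brd3os were enriched and Wdr83os was depleted (median -0.23). Of all protein-coding genes tested, 15.3% were enriched and 12.5% depleted, so both counts were near the background. Of these 10, 7 differed from their partner, 4 upward and 3 downward, beside 34.7% of all neighbour pairs. The 3 include Crxos, whose partner Crx had no count in the input. Of the 49 tested pairs with a lncRNA 14 differed, those of Foxd2os and Lrrc75aos1 among them. The difference between biotypes was not tested.

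A list of symbol prefixes of transcription factor families, broad enough to take in general zinc-finger genes, held 7 partners, Vax2, Foxd2, Irx3, Tbx3, Evx1, Zfp335 and Zbtb11. Of their RNAs Vax2os, Foxd2os and Zfp335os were enriched, with a median of 1.41 over the 7, or 2 with a median of 0.87 without Foxd2os, which entered through IP reads, and of the partners themselves Vax2, Irx3 and Tbx3 were enriched, with a median of 0.33, where 15.0% of all genes tested were enriched. Tbx3 was the most counted of these, at 16908, 35831 and 35537 (log2 1.04 ± 0.05, adjusted p = 8.54e-20), while Tbx3os2 had 16, 8 and 8. Irx3 had 100, 184 and 269 counts (log2 1.14 ± 0.29, adjusted p = 0.000999) and Irx3os 15, 47 and 35. Of the 7 pairs, that of Foxd2os was called, on an RNA with no input count. Some transcription factor genes lie outside the list and went either way, with log2 (IP/input) of 1.06 ± 0.11 for Jun, 1.49 ± 0.25 for Prdm16, 1.32 ± 0.27 for Dmrta2 and -0.55 ± 0.08 for Sp3, which was not called. With a fixed dispersion of 0.1, Irx3, Tbx3, Jun, Prdm16 and Dmrta2 were not called (adjusted p = 0.0764 to 0.221), nor was Zfp335os (0.0742).

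Levels per kb of exon that no other gene holds set most RNAs below their partners. The RNA was lower in every library in 44 of the 62 pairs, and its median ratio to the partner was 0.129 in the input, against 0.213 and 0.159 after IP. It was higher in every library in 12, among them Brip1os, Slc7a6os, Crxos, Ptprtos and Pigbos1. Oip5os1, Lrp8os2, Ccpg1os and Lppos passed from below the partner in the input to above it in both IP libraries.

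Sequence composition was close to that of other genes. The median GC content of the RNAs was 50.3% and the median density of GGAC, the core of the commonest m6A motif, was 3.96 per kb of exon, beside 49.7% and 3.94 over all genes tested. Oip5os1 held 12 GGAC in 1551 bases (7.74 per kb), whereas Pigbos1, also enriched, held 0 in 499 bases, and the depleted Ppifos held 13 in 1777 bases (7.32 per kb). Across the 62 RNAs the log2 (IP/input) had a Spearman rho of 0.07 with GGAC density, 0.25 with GC content and 0.07 with length, as a description over genes of the same libraries.

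Other antisense and retained RNAs were read beside these. Genes named after another gene with "as" numbered 4, of which Znrd1as (584, 1415 and 1540 counts, log2 1.30 ± 0.12, adjusted p = 5.87e-12) and Gnasas1 (101, 294 and 224, log2 1.32 ± 0.28, adjusted p = 8.41e-05) were tested and enriched. Of 4 genes named with "ot", only Kcnq1ot1 lies opposite its partner, and it was not called (45, 56 and 74 counts). Sox2ot, on the same strand as Sox2, was depleted (75, 26 and 24, log2 -1.62 ± 0.50, adjusted p = 0.00565). Sox1ot, also on the strand of its partner, had 8, 32 and 20 counts and was not called (log2 1.65 ± 0.93, adjusted p = 0.133). Leprot, likewise on the strand of its partner, was not called either (log2 -0.28 ± 0.07). Of the 13 tested members of a list of 15 RNAs that are largely noncoding, many of them retained in the nucleus, 6 were depleted, beside 13.0% of all genes and 10.5% of all lncRNAs tested, with a median log2 (IP/input) of -0.67. Malat1 was lowest, at 4373, 491 and 520 counts (log2 -3.15 ± 0.09, adjusted p = 1.81e-26). The other depleted members were Neat1, Miat, Firre, Gas5 and Snhg3, while Tsix, Mirg and Kcnq1ot1 lay above 0 (log2 0.61, 0.57 and 0.49).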

How the data were processed

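RIP-seq data of 1 input and 2 anti-YTHDF2 IP libraries were grouped by sample title. The methods of the study describe an IP from cleared lysate, while the labels describe an IP from Trizol-extracted RNA, and the counts do not tell which was done. The deposited values are raw counts per gene. The authors made them with featureCounts 2.0.3, per the file headers, from the mm10 RefSeq gene models, with strand ignored and each mate of a pair counted, so that sampling noise exceeds that of independent reads. The submitters' processing notes name fastp 0.19.4, HISAT2 2.2.1 and DESeq2 1.40.2. The table held 0 columns of other samples. Intervals of depth cover counting error only.

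All 49997 genes entered edgeR 4.0.16 in R 4.3.3 (filterByExpr, TMM, robust quasi-likelihood F test, Benjamini-Hochberg adjustment), and 19601 were tested, with 1 residual degree of freedom from the 2 IP libraries. Spread between inputs was not measured. Each SE is the size of the fitted log2 change over the root of F. Nothing in the labels says that the IP replicates came from separate cultures, so p-values measure only the spread between these samples. They rest mainly on variability pooled over genes, with a median of 34.9 prior degrees of freedom beside the 1 residual one.

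A pair was tested by the difference of its log2 fold changes, with the root of the summed squared SEs and a t distribution, adjusted over tested opposite-strand neighbours that overlap or lie within 1000 bases, joined with the pairs farther apart. A call needed an adjusted p-value below 0.05 and a difference larger than 1. That test takes the estimates of both genes as independent. Scripts were tested on simulated data. Named were the 12 RNAs with most counts, the 6 highest and 6 lowest called, and the 5 widest called differences in each direction with at least 100 counts for each member, beside other called members. Members and lists were chosen with earlier results of these data known. Alternatives were other scalings, no filter, DESeq2 1.42.0, a fixed dispersion of 0.1, halved counts, omission of the mitochondrial chromosome, other pair families, and each IP library alone (log2 ratios after adding 0.5 to each count). Coordinates, biotypes and sequences are those of RefSeq on GRCm38.p6, where all 62 members had the same span. Values of 1 member are not reported here singly, although it is part of the counts.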

Additional observations from a re-analysis of the deposited data

How the results depend on the processing

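Under other scalings (DESeq2 size factors, total counts, upper quartile), no filter, halved counts and omission of the mitochondrial chromosome, 15 or 16 RNAs were enriched and 5 or 6 depleted, against 15 and 6. Total counts moved the median of all genes tested to 0.10, and Frs3os was then enriched. Lrrc75aos1, called on 30 counts, was lost with total counts (adjusted p = 0.0513), upper quartile (0.0503), DESeq2 (0.202) and halved counts, which removed it from the test. DESeq2 left 12 enriched and 3 depleted RNAs, without Gssos2, Ggnbp2os, Zfp335os, Dgkeos, Fbxl12os and Lrrc75aos1. The share of all genes called is given for the main fit only, so RNA and partner counts under other settings have none beside them. A fixed dispersion of 0.1, which does not rest on the agreement of the IP libraries, left 11 enriched and 2 depleted RNAs, 6 enriched and 3 depleted partners (without Map2k3, Gss, Irx3, Tbx3, Jun, Prdm16, Dmrta2, Fancd2 and Appbp2), and 8 pairs with a higher and 3 with a lower RNA, 11 of 60 beside 16.5% of all neighbour pairs. With p-values adjusted over pairs whose exons share no base, 6 higher and 4 lower RNAs were called, 10 of the 31 pairs left beside 34.2% of all such pairs. A minimum of 10 counts would give 97 members and one of 100 counts 38.

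With 1 IP library there is no residual degree of freedom, so genes past 2-fold were counted without a test. Without IP replicate 1 or 2 there were 18 to 21 RNAs enriched and 11 depleted in either case, 11 to 14 partners enriched and 5 to 7 depleted, and 18 to 19 pairs with a higher RNA and 13 to 16 with a lower one. All but 2 of the 21 called RNAs, Pigbos1 and Gssos2, and all but 1 of the 21 called pairs, Frs3os, were past 2-fold in each IP library alone. No paired analysis was possible because there was 1 input library for both IP replicates.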
